A study of Mus musculus with 6 samples.

Results

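The genes described here are the 10 genes of the odor transduction cascade, Gnal, Gnb1, Gng13, Ric8b, Adcy3, Pde1c, Cnga2, Cnga4, Cngb1 and Ano2. They were taken by symbol from a deposited table of 49164 genes with counts, and all 10 were found and passed the filter on low counts. RNA was sequenced from the nasal conchae, which carry the olfactory epithelium, of 6 male-labelled c57Bl6/ICR crossbred mice aged 3 months. The 3 control mice carry the genotype label WT and had no treatment other than the tetracycline withdrawal given below. The 3 sFlt1 mice came from crossing the camk2a-tTa line with the tet-sFlt1 line, so that a transactivator under the Camk2a promoter turns on soluble Flt1, a decoy that binds VEGF, once tetracycline is removed. Removal of tetracycline from the drinking water at embryonic day 13.5 is recorded for all 6 mice, controls included. By MRI at 2 months the olfactory bulbs of sFlt1 replicates 1, 2 and 3 were 28%, 29% and 14% of normal size. The labels do not say in which cells of the epithelium the driver is active. The question is whether a small bulb goes with other transcript levels in the sensory tissue, and here whether the transduction genes differ together or one by one.

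Olfactory sensory neurons turn odor binding into current in their cilia. A bound receptor activates the G protein made of the alpha subunit Gnal with Gnb1 and Gng13, and Gnal activates the adenylyl cyclase Adcy3. Cyclic AMP opens the channel built from Cnga2, Cnga4 and Cngb1, calcium enters and opens the chloride channel Ano2, and the phosphodiesterase Pde1c, driven by calcium and calmodulin, breaks cyclic AMP down. Ric8b is an exchange factor and chaperone for Gnal. Most of these genes are strongest in mature sensory neurons, while Gnb1 is used by very many cell types and Gng13 also by taste and Trpm5-bearing cells.

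The promoters are shown because the genes are active together in mature sensory neurons, where Ebf factors, first described through the Olf-1 site, are a known class of regulators. RefSeq windows of the build GRCm38.p6, from 250 bases before to 50 after a start, matched 9 of the 10 genes, in 15 windows. The core letters CCCNNGGG of the Olf-1 type, which read the same on both strands, were in 5 of the 15 windows (33.3%), against 13.7% of all 32817 windows of that length. Those 5 windows belonged to Cnga2, Cnga4, Cngb1, Gng13 and Ano2, so all 3 channel subunits held a match. The longer Olf-1 type motif, the same core with a T before and an A after it, was in 0 of the 15 and in 0.905% of all windows, and TAATTA, the homeodomain type, in 0 of the 15 and 5.3% of all. A match is only a string of letters and not a shown binding site. Below are the windows of the 3 channel subunits and of Gng13, 5′ to 3′ on the gene's strand, with the matches to CCCNNGGG in capitals, at chrX:71991599-71991898 (plus strand), chr7:105404318-105404617 (plus), chr8:95306536-95306835 (minus) and chr17:25716922-25717221 (plus).
Cnga2: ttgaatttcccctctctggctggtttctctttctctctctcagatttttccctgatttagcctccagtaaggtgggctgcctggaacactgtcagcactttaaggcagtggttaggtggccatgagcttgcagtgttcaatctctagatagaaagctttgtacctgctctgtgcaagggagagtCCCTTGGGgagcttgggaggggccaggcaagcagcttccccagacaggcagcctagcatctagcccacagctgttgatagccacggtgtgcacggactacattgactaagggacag
Cnga4: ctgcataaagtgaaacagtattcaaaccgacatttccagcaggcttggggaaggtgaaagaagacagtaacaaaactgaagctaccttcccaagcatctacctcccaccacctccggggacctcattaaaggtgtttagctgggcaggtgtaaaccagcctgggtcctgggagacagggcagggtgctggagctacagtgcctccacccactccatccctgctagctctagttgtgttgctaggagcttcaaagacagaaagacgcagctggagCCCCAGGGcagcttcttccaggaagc
Cngb1: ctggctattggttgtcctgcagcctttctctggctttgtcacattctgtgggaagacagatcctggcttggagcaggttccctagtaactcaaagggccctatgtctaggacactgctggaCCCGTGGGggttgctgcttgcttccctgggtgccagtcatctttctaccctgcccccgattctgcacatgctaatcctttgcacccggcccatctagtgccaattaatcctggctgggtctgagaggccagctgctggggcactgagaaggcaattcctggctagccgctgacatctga
Gng13: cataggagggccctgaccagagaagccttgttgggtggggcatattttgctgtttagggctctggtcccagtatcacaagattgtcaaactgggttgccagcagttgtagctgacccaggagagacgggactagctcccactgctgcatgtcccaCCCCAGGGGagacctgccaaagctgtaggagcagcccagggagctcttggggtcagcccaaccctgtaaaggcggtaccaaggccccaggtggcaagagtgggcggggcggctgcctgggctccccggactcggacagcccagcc
The match starts 66 bases before the start in Cnga2, 129 before it in Cngb1 and at base 25 after it in Cnga4. Gng13 holds 2 overlapping matches, starting 95 and 94 bases before the start.

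Library totals ran from 28832424 to 46444862 counts. The labels number the replicates but do not say that they came from separate litters, and p-values measure the spread between these mice. Control replicate 1 and sFlt1 replicate 3 go against the label male, with Xist at 743 and 513 CPM of the library total and 3 Y-linked genes summing to 0.0932 and 0.112, against 128 or more in the other 4. Control replicate 3 stood apart in transcripts of brain neurons, whose 8 markers summed to 1246.5 CPM against 19.1 to 108 in the other 5 libraries. The mice of the sFlt1 group differed widely among themselves. The 10 genes took 0.956%, 0.970% and 0.705% of all counts in control replicates 1, 2 and 3 and 0.339%, 0.716% and 0.257% in sFlt1 replicates 1, 2 and 3. Levels below are CPM (counts of a gene scaled to a common library size), relative to library sizes scaled with TMM factors, listed for replicates 1, 2 and 3 in that order. Differences are edgeR log2 fold changes of sFlt1 over control, with p-values adjusted over all 19899 genes tested.

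All 10 cascade genes had lower estimates in sFlt1 mice, from -0.80 for Gnb1 to -1.33 for Ric8b, with a median log2 fold change of -1.15 where the median of all genes tested was 0.02. Of all genes tested, 48.7% had an estimate below 0, 19.6% an estimate of -0.5 or lower and 9.99% an estimate of -1 or lower. No cascade gene passed an adjusted p of 0.05 by edgeR, by DESeq2 or by limma voom. By edgeR 0 of all genes passed (0%), and by DESeq2 1.48% passed as lower. At an unadjusted edgeR p under 0.05, 7 of the 10 were lower, against 6.24% of all genes. In 8 of the 10 every sFlt1 mouse was below every control, against 9.51% of all genes. That count holds for TMM-scaled CPM, with factors of 1.10 for sFlt1 replicate 2 and 0.964 for control replicate 3. On library totals Gnal and Cnga4 overlapped too. The summed share of the 10 genes was then 0.716% in sFlt1 replicate 2 and 0.705% in control replicate 3. In bulk tissue, fewer cells of a type and less RNA per cell cannot be told apart.

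**Figure D1:**
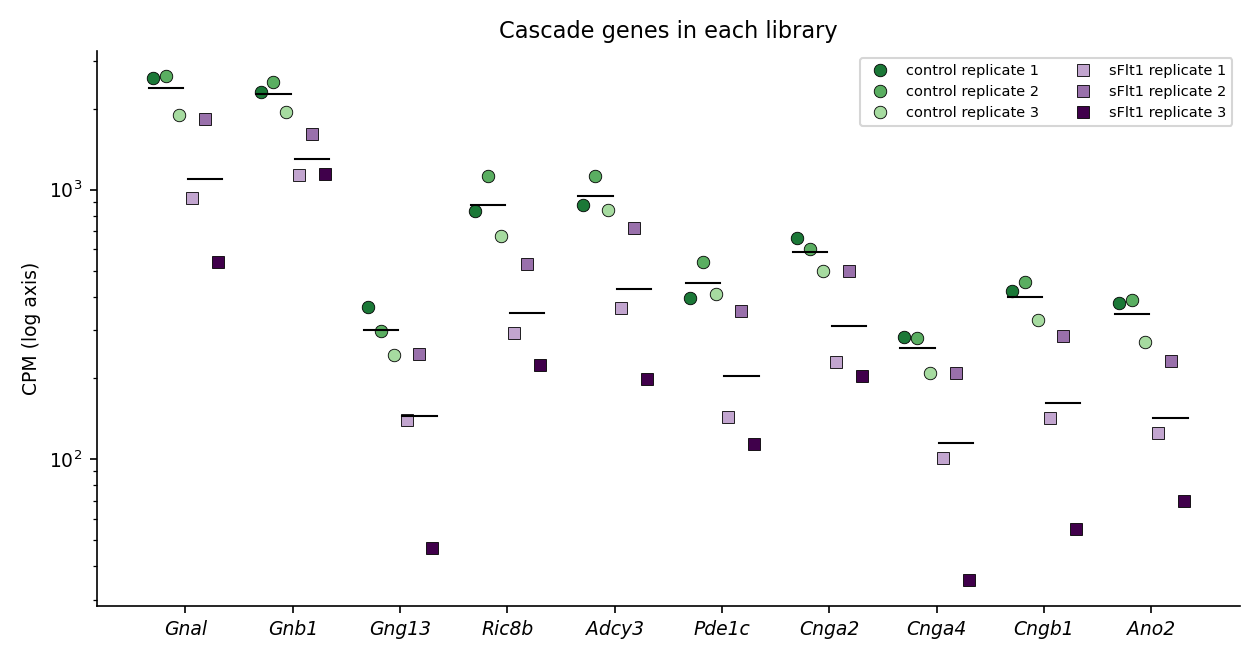
CPM of the 10 cascade genes (log axis) in each of the 6 libraries, circles for controls and squares for sFlt1 mice, with bars at the group means. sFlt1 replicate 2 lies nearest to the controls in all 10 genes, and sFlt1 replicate 3 lies lowest in all but Gnb1.

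Among the G protein genes, Gnal and Gnb1 drew the most counts of all 10 genes, on a scale not corrected for gene length, and Gng13 far fewer. Gnal (ENSMUSG00000024524, chromosome 18, 67221287 to 67359863, GRCm39), the olfactory alpha subunit, stood at 2600.5, 2645 and 1894 CPM in the control mice, against 935, 1824 and 536.5 CPM in the sFlt1 mice. On this scale the groups did not overlap, but sFlt1 replicate 2 came close to control replicate 3, and was above it on library totals. The log2 fold change was -1.12 (edgeR SE 0.48, adjusted p = 0.456). Gnb1 (ENSMUSG00000029064, chromosome 4, 155575818 to 155643726), the beta subunit, stood at 2310.2, 2512 and 1949.9 CPM in the control mice, against 1136, 1613 and 1139 CPM in the sFlt1 mice. It had the smallest difference of the set, -0.80 (edgeR SE 0.29, adjusted p = 0.433), with no overlap between the groups. Unlike the other cascade genes, it was as high in sFlt1 replicate 3 as in replicate 1. Gng13 (ENSMUSG00000025739, chromosome 17, 25936145 to 25938380), the gamma subunit, stood at 365, 298 and 243 CPM in the control mice, against 140.01, 246 and 46.7 CPM in the sFlt1 mice. Here sFlt1 replicate 2 was above control replicate 3, so the groups overlapped, and the log2 fold change was -1.07 (edgeR SE 0.54, adjusted p = 0.507). Ric8b (ENSMUSG00000035620, chromosome 10, 84753480 to 84854201), the chaperone of Gnal, stood at 836, 1127 and 672 CPM in the control mice, against 292, 529 and 224 CPM in the sFlt1 mice. Its log2 fold change of -1.33 (SE 0.38) had the smallest edgeR p of the set, 0.0105 before and 0.432 after adjustment, and a DESeq2 adjusted p of 0.0657. The groups were clearly apart, and Ric8b was the gene in which sFlt1 replicate 2 stood lowest against the controls.

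The enzymes that make and remove cyclic AMP were lower by nearly the same amount. Adcy3 (ENSMUSG00000020654, chromosome 12, 4183103 to 4263525), the cyclase, stood at 877, 1119.7 and 842 CPM in the control mice, against 363, 721 and 199 CPM in the sFlt1 mice. Pde1c (ENSMUSG00000004347, chromosome 6, 56046789 to 56629472), the ciliary phosphodiesterase, stood at 397, 540.4 and 411 CPM in the control mice, against 143, 353 and 113 CPM in the sFlt1 mice. In neither gene did the groups overlap. The log2 fold change was -1.15 (edgeR SE 0.46, adjusted p = 0.444) for Adcy3 and -1.14 (edgeR SE 0.44, adjusted p = 0.440) for Pde1c.

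Among the channel subunits, Cnga2 had the smallest difference. Cnga2 (ENSMUSG00000005864, chromosome X, 71035455 to 71053824), the principal subunit, stood at 663, 602 and 497 CPM in the control mice, against 229, 499 and 203 CPM in the sFlt1 mice. The groups overlapped by a narrow margin, since sFlt1 replicate 2 was just above control replicate 3, and the log2 fold change was -0.92 (edgeR SE 0.38, adjusted p = 0.446). Cnga4 (ENSMUSG00000030897, chromosome 7, 105053775 to 105057949), which speeds channel closure by calmodulin, stood at 283, 281 and 209 CPM in the control mice, against 101, 208 and 35.4 CPM in the sFlt1 mice. The groups just failed to overlap, though on library totals they did overlap, and sFlt1 replicate 3 was far below the other libraries. Its log2 fold change was -1.17 (edgeR SE 0.57, adjusted p = 0.493). Cngb1 (ENSMUSG00000031789, chromosome 8, 95965673 to 96033213), the beta subunit that carries the channel to the cilia, stood at 419, 454 and 329 CPM in the control mice, against 142, 285 and 54.7 CPM in the sFlt1 mice. There was no overlap, and the log2 fold change was -1.32 (edgeR SE 0.54, adjusted p = 0.448).

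Ano2 (ENSMUSG00000038115, chromosome 6, 125667382 to 126017089), the chloride channel that amplifies the current, stood at 379.9, 388 and 271 CPM in the control mice, against 125, 230.4 and 69.7 CPM in the sFlt1 mice. All sFlt1 mice were below all controls. The log2 fold change was -1.29 (edgeR SE 0.43, adjusted p = 0.432).

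In the authors' deposited table the 10 log2 fold changes ran from -0.80 for Gnb1 to -1.34 for Ric8b, and none of the adjusted p-values was under 0.05. The lowest there were 0.0726 for Ric8b and 0.0966 for Gnb1. Another deposited table of the authors lists 6 of the 10, Cnga2, Adcy3, Ano2, Gnal, Gng13 and Cngb1, under the heading mOSN.

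The size of the difference depended on the mouse. As a share of the control mean, the median over the 10 genes was 38.7% in sFlt1 replicate 1, 76.4% in replicate 2 and 21.8% in replicate 3. Replicates 1 and 2 had nearly equal bulb sizes, and their 10 genes stood at 31.9% to 50.3% and at 60.3% to 85.0% of the control mean. The spread between genes was widest in replicate 3, the mouse with the smallest bulb, from 13.6% for Cngb1 and 13.7% for Cnga4 to 34.5% for Cnga2 and 50.5% for Gnb1. With 3 mice, no relation to bulb size was tested.

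**Figure D2:**
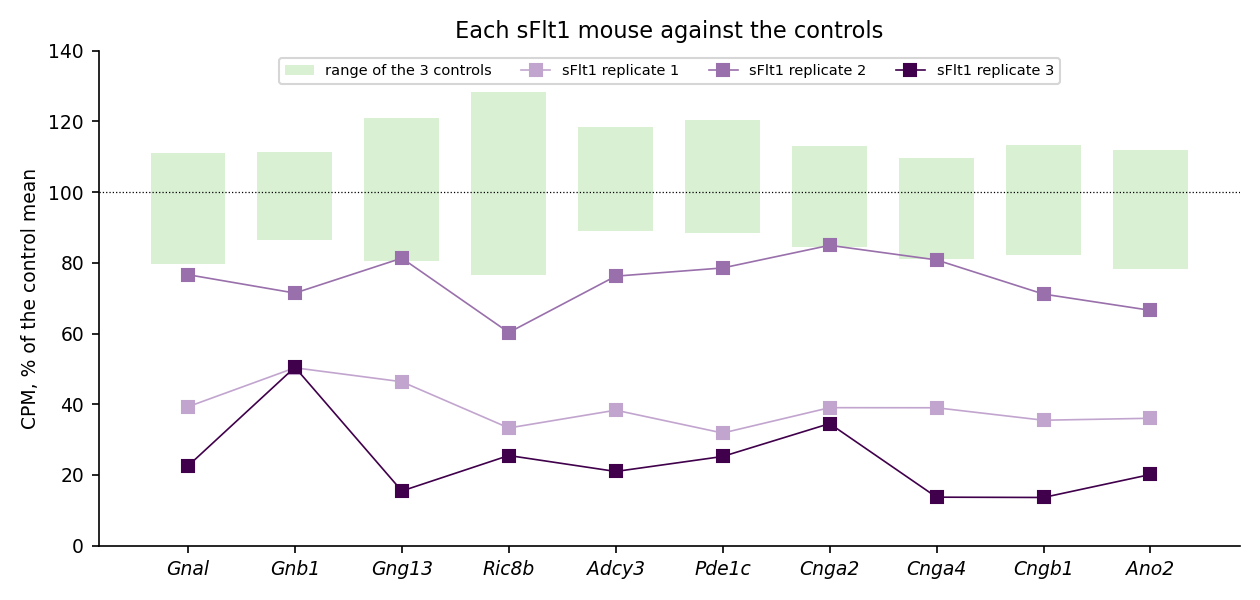
CPM of each cascade gene in the 3 sFlt1 mice as a percentage of the control mean (linear axis from 0), with pale bars for the range of the 3 controls. Replicate 1 runs from 31.9% to 50.3%, replicate 2 from 60.3% to 85.0% and replicate 3 from 13.6% to 50.5%.

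Leaving out a mouse moved the median by over 1.5 times in 1 case and never changed its sign. The median log2 fold change was -1.76 without sFlt1 replicate 2 but -0.80 when sFlt1 replicate 3 was left out, and the other 4 omissions gave -1.03 to -1.24. Without both libraries with Xist reads it was -0.78. Without sFlt1 replicate 2, all 10 genes passed by DESeq2 (adjusted p from 2.7e-05 to 0.039), where 3.79% of genes passed as lower, but none passed by edgeR (adjusted p from 0.276 to 0.331). Over all settings run, the adjusted p of a cascade gene ranged from 5.4e-06 to 0.802. Control replicate 3, the library with brain transcripts, was the lowest control for every cascade gene but Pde1c, and without it the median was -1.24.

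The cascade genes had estimates about as low as those of other genes of mature sensory neurons. The 6 reference genes, Omp, Stoml3, Rtp1, Rtp2, Gfy and Umodl1, had a median log2 fold change of -1.08, and all 6 estimates were below 0. Gfy, a Golgi protein needed for odor responses, passed by DESeq2 (edgeR log2 fold change -1.39, DESeq2 adjusted p = 0.019), but not without control replicate 1 (0.092), control replicate 2 (0.11) or sFlt1 replicate 1 (0.14). Omp, the olfactory marker protein, stood at 3598, 4056 and 2836 CPM in the control mice, against 1317, 2366 and 466 CPM in the sFlt1 mice. Within a library, the mean log2 CPM of the 10 cascade genes minus that of the reference genes was -0.98, -0.87 and -0.79 in controls and -1.04, -0.81 and -0.73 in sFlt1 mice, so that the groups overlapped. Taken one at a time against the reference, each of the 10 genes also overlapped between the groups. The differences ran from -0.28 for Cngb1 (SE 0.17) to 0.52 for Gnb1 (SE 0.41). Without sFlt1 replicate 3 they were -0.14 for Cngb1 and 0.11 for Gnb1, and without sFlt1 replicate 2 Cngb1 was at -0.42. No exact permutation p was below 0.2 (0.667 after Benjamini-Hochberg adjustment over 10 genes).

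Within a library, each gene was also set against the mean of the other 9, on a log2 scale, so that a shift common to the set cancels. Gnal kept its place in every library, at 2.17, 2.07 and 2.03 in controls and 2.12, 2.14 and 2.10 in sFlt1 mice (SD over the 6 libraries 0.05). Cngb1 was at -0.76, -0.75 and -0.78 in controls and -0.90, -0.84 and -1.56 in sFlt1 mice, a difference of -0.34 (SE 0.23), and of -0.11 without sFlt1 replicate 3. Ano2 was at -0.92, -1.003 and -1.09 in controls and -1.11, -1.18 and -1.17 in sFlt1 mice, a difference of -0.15 (SE 0.06). Cngb1 and Ano2 were the 2 genes in which every sFlt1 mouse lay below every control. Each had an exact permutation p of 0.1, the smallest that 3 mice against 3 allow, and 0.5 after Benjamini-Hochberg adjustment over the 10 genes. Gnb1 was at 1.98, 1.99 and 2.07 in controls and 2.43, 1.94 and 3.31 in sFlt1 mice, a difference of 0.55 (SE 0.40, exact permutation p = 0.4). That difference was 0.17 without sFlt1 replicate 3 and 0.86 without sFlt1 replicate 2. Cnga2 was 0.30 higher relative to the rest (SE 0.22, exact permutation p = 0.3) and 0.11 without that mouse, with overlapping groups. Cnga4 differed by -0.21 and Ric8b by -0.10, while Adcy3, Gng13 and Pde1c differed by -0.03, -0.05 and -0.01, all with overlap. In each of these 5 genes the sign turned when some single library was left out, for Cnga4 to 0.073 and for Gng13 to 0.22 without sFlt1 replicate 3, and for Ric8b to 0.015 without control replicate 2.

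**Figure D3:**
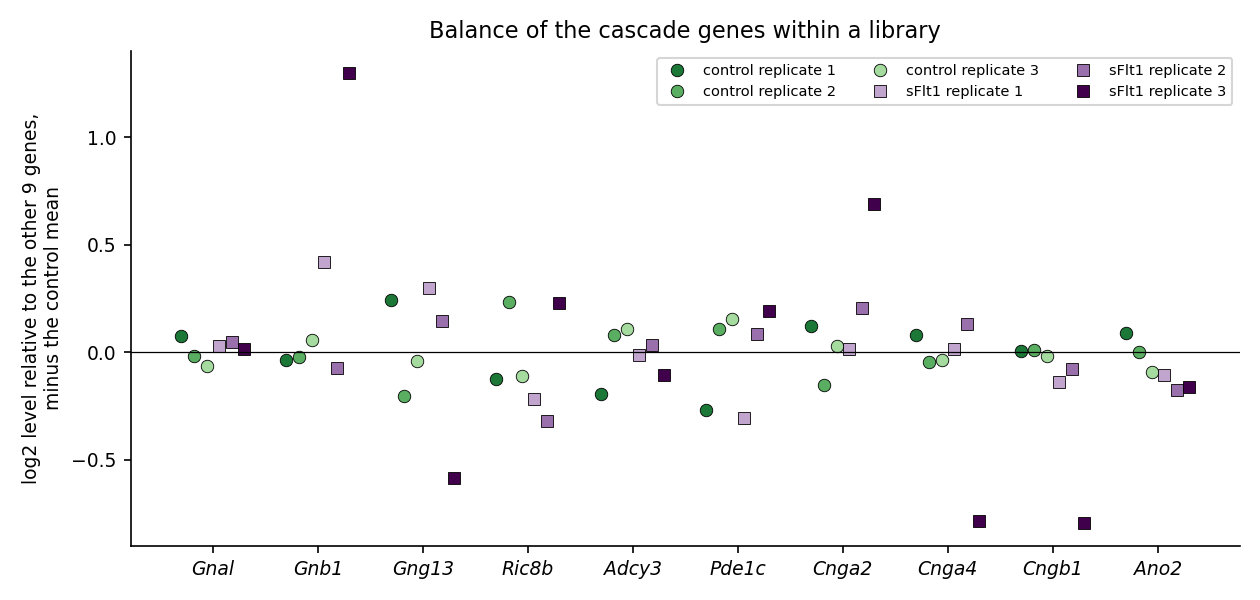
Level of each cascade gene relative to the other 9 in the same library (log2), shown as the difference from the control mean, with circles for the 3 controls and squares for the 3 sFlt1 mice. sFlt1 replicate 3 lies far from the rest in Gnb1, Cnga2, Cnga4, Cngb1 and Gng13, and Gnal and Ano2 spread little.

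The make-up of the channel transcripts differed most in sFlt1 replicate 3. The log2 ratio of Cngb1 to Cnga2 was -0.66, -0.41 and -0.59 in controls and -0.69, -0.81 and -1.89 in sFlt1 mice. The groups did not overlap, and the difference was -0.57 (SE 0.39, exact permutation p = 0.1, 0.45 after Benjamini-Hochberg adjustment over the 9 pairs tested). Without sFlt1 replicate 3 it was -0.19. The ratio of Cnga4 to Cnga2 was -1.23, -1.10 and -1.25 in controls and -1.19, -1.26 and -2.52 in sFlt1 mice, so replicate 3 alone stood apart. The difference was -0.46 (SE 0.43, exact permutation p = 0.4) and -0.03 without replicate 3. Cnga2 is X-linked and sFlt1 replicate 3 had Xist reads. So had control replicate 1, which was at -0.66 for Cngb1 to Cnga2 and -1.23 for Cnga4 to Cnga2. Without both libraries with such reads, the differences were -0.25 for Cngb1 to Cnga2 and -0.05 for Cnga4 to Cnga2, and the part of sex in these ratios was not tested. The ratio of Ano2 to Cnga2 was lower in every sFlt1 mouse than in every control, with a difference of -0.41 (SE 0.21, exact permutation p = 0.1, adjusted 0.45), and -0.22 without sFlt1 replicate 3.

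The other pairs overlapped between the groups. Gnal to Adcy3, the step from G protein to cyclase, differed by 0.05 (SE 0.13) and Pde1c to Adcy3, breakdown against synthesis, by 0.02 (SE 0.16). Gng13 to Gnal differed by -0.07 (SE 0.26) and Ric8b to Gnal by -0.12 (SE 0.20). Gnb1 to Gng13 differed by 0.53 (SE 0.60), and by -0.05 without sFlt1 replicate 3, which was at 4.61 with the other 5 libraries between 2.66 and 3.08. Cnga2 to Adcy3 differed by 0.30 (SE 0.26), and by 0.09 without that mouse. For these 6 pairs the exact permutation p ran from 0.4 to 0.9.

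Over all 45 pairs, the spread of the log2 ratio across the 6 libraries separated the genes into steady and unsteady partners. The tightest pairs were Cnga4 with Cngb1 (SD 0.09) and Ano2 with Gnal (SD 0.09), then Adcy3 with Gnal (SD 0.14) and Cnga4 with Gng13 (SD 0.15). Cnga4 and Cngb1, both partners of Cnga2 in the channel, held their ratio to each other more closely over the 6 libraries than to Cnga2, where the SDs were 0.54 and 0.53. The widest pairs were Gnb1 with Cnga4 (SD 0.77), with Cngb1 (SD 0.76) and with Gng13 (SD 0.72). Without sFlt1 replicate 3, the SD was 0.07 for Cnga4 with Cnga2, 0.15 for Cngb1 with Cnga2 and 0.21 for Gnb1 with Cnga4, against 0.10 for Cnga4 with Cngb1. Other pairs stayed wide without it, among them Gnb1 with Pde1c (SD 0.34), Cnga2 with Ric8b (SD 0.30) and Gnb1 with Ric8b (SD 0.29).

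**Figure D4:**
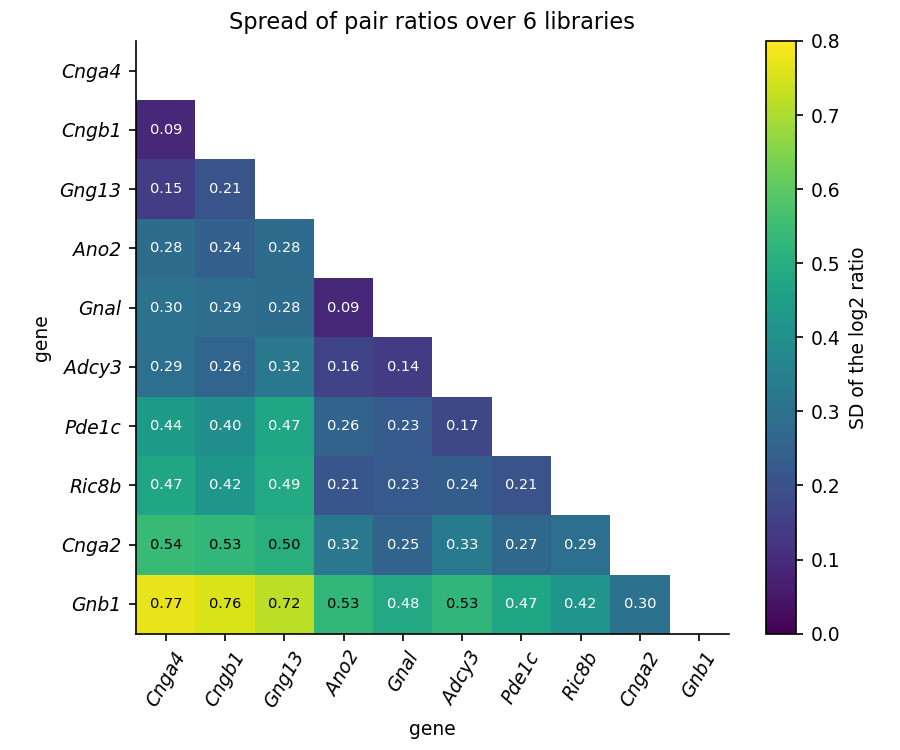
SD over the 6 libraries of the log2 ratio for each of the 45 pairs of cascade genes, from dark (small) to bright (large), both axes listing the genes. The values run from 0.09 for Cnga4 with Cngb1 to 0.77 for Cnga4 with Gnb1.

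Compared per kilobase of exon (GENCODE vM21 lengths, all transcripts of a gene merged), Gnb1 was highest in controls at 529 ± 66.7 CPM per kb and Gng13 next at 391 ± 79.2 (SD, n = 3), with overlapping ranges. Gnal at 213 ± 37.7, Cnga2 at 190 ± 27.2, Ric8b at 167 ± 43.7 and Adcy3 at 151 ± 24.2 CPM per kb followed, each overlapping its neighbour. Cnga4 at 96.8 ± 15.8, Ano2 at 64.3 ± 12.2, Cngb1 at 42.9 ± 6.90 and Pde1c at 22.4 ± 3.95 CPM per kb came last, with no overlap between neighbours from Adcy3 downwards. A merged length joins all transcripts of a gene, so a level per kb can be a low estimate. The merged length was 20067 bases for Pde1c, 11172 for Gnal and 9355 for Cngb1, against 773 for Gng13. The order therefore depends on these lengths. In sFlt1 mice the order of the means was the same but for Cnga2 with Gnal and Adcy3 with Ric8b, which changed places within their spread. Gnb1 made up 25.7% of the summed CPM of the set in controls and 31.5%, 24.8% and 43.5% in sFlt1 replicates 1, 2 and 3.

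The other genes of the pathway did not share one direction. Of 14 G protein genes tested outside the set, 7 had lower and 7 higher estimates (median log2 fold change -0.04). In the main edgeR or DESeq2 fit 0 passed. At an unadjusted edgeR p under 0.05, 2 were lower and 1 was higher, as 4.84% of all genes were. Gnas, the alpha subunit that precedes Gnal in immature neurons, had 0.10 (SE 0.32), a sign that turned without sFlt1 replicate 3 (-0.09). Gng8, the gamma subunit of immature neurons, stood at 19.1, 6.16 and 5.92 CPM in the control mice, against 24.3, 26.9 and 23.4 CPM in the sFlt1 mice. Gng8 was above the controls in every sFlt1 mouse, where 8.76% of all genes were, with a log2 fold change of 1.257 (edgeR SE 0.49, adjusted p = 0.440). Without control replicate 1, which held it highest among the controls, it was 2.07 and passed by DESeq2 (adjusted p = 1.0e-07), as it did without both libraries with Xist reads (2.3e-09) and with the replicate block (0.0100). Gnb5 had -0.97 (SE 0.36), and -0.49 without control replicate 3. Of 8 other adenylyl cyclases 5 were lower and 3 higher, with 0 passing in the main edgeR or DESeq2 fit. Their median was -0.36, but 0.45 without control replicate 3. Adcy6, the most abundant of them, had 0.78 (SE 0.35), but 0.27 without sFlt1 replicate 3, which held it at 111 CPM against 54.6 and 43.1 CPM in the other sFlt1 mice. Adcy8 had a log2 fold change of -3.56 (SE 1.34), but control replicate 3 held it at 31.9 CPM against 3.56 or less elsewhere. Adcy8 passed in 5 DESeq2 settings other than the main fit, all of which included control replicate 3.

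Of 10 other phosphodiesterases 8 were lower and 2 higher, and without control replicate 3 their median moved from -0.48 to 0.02. Pde4a, a cyclic AMP phosphodiesterase that is found outside the cilia of sensory neurons, stood at 508, 428 and 345 CPM in the control mice, against 138.5, 249.7 and 55.5 CPM in the sFlt1 mice. The groups did not overlap, and the log2 fold change was -1.53 (edgeR SE 0.51, adjusted p = 0.432, DESeq2 adjusted p = 0.107). Pde10a passed by DESeq2 (edgeR log2 fold change -2.35, DESeq2 adjusted p = 0.015), and the difference was -1.73 without control replicate 3, which held it highest. Its DESeq2 adjusted p was 0.19 without that library, 0.060 without control replicate 2 and 0.12 without sFlt1 replicate 1. Pde8a was 1.08 higher (SE 0.36) with no overlap, while Pde1a and Pde1b, the near relatives of Pde1c, had -0.42 (SE 0.63) and -1.67 (SE 0.96) with overlapping groups. Leaving out 1 library at a time took Pde1a from -0.04 without sFlt1 replicate 2 to -1.43 without sFlt1 replicate 3, and Pde1b from -0.04 without control replicate 3, which held it at 64.2 CPM, to -2.62 without sFlt1 replicate 3. Of 6 other genes of the cyclic nucleotide-gated channel family 4 were lower, with a median of -0.83, and 0 passed in the main edgeR or DESeq2 fit. All 4 had an unadjusted edgeR p under 0.05, where 6.24% of all genes were lower at that level. Hcn2, a pacemaker channel gene, stood at 135, 152 and 177 CPM in the control mice, against 60.7, 102 and 75.0 CPM in the sFlt1 mice. The groups did not overlap, and the log2 fold change was -0.97 (edgeR SE 0.24, adjusted p = 0.432). Hcn3 had -2.18 (SE 0.76), and -1.001 without control replicate 3, and Hcn4 had -0.69 (SE 0.26).

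Of 10 other anoctamins and chloride transporters tested, 5 were lower and 5 higher. Ano1, the epithelial relative of Ano2, stood at 45.5, 46.3 and 32.2 CPM in the control mice, against 80.9, 63.0 and 75.3 CPM in the sFlt1 mice. The groups did not overlap, and the edgeR estimate was 0.82 (SE 0.21, adjusted p = 0.432). Slc12a2, which loads chloride into the neurons, had 0.47 (SE 0.33), and 0.037 without sFlt1 replicate 3, with that mouse at 998 CPM and the other 5 libraries between 449 and 513 CPM. Ano3 and Ano4 passed by DESeq2 (DESeq2 adjusted p = 0.0036 and 0.030) but were at 41.2 and 13.1 CPM in control replicate 3 against 2.25 CPM or less elsewhere. Without that library their DESeq2 adjusted p-values were 0.58 and 0.38. Slc12a5 was at 127.5 CPM in that library and at 14.6 CPM or less elsewhere. Leaving that library out did not bring all brain neuron markers level between the groups. Their median log2 fold change was -3.15, and -0.83 without it. Th then had -3.62 and Gad1 -1.95, while Slc17a7 had 0.51 and Neurod6 1.16. Th passed in all 9 DESeq2 settings. The part of brain transcripts in the differences of this and the next list was not tested.

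All 13 calcium extrusion and calmodulin genes had lower estimates, with a median log2 fold change of -0.73 and -0.49 without control replicate 3. None passed by edgeR. At an unadjusted edgeR p under 0.05, 5 were lower, against 6.24% of all genes, and 2 passed by DESeq2 as lower, against 1.48%. Slc8a1, a sodium-calcium exchanger, stood at 198, 247 and 294 CPM in the control mice, against 62.7, 115 and 42.1 CPM in the sFlt1 mice, with an edgeR log2 fold change of -1.75 (SE 0.39, DESeq2 adjusted p = 0.0083), and -1.60 without control replicate 3. Vsnl1, a neuronal calcium sensor, had -1.88 (edgeR SE 0.52, DESeq2 adjusted p = 0.038), and -1.47 without that library. Both calls were lost by DESeq2 without control replicate 3 (adjusted p = 0.077 for Slc8a1 and 0.25 for Vsnl1), without control replicate 2 (0.060 and 0.096) and without sFlt1 replicate 1 (0.095 and 0.14). Atp2b2, a calcium pump, had -3.14 (SE 1.21), and -0.78 without control replicate 3. Of 10 genes of receptor desensitisation and trafficking 8 were lower (median -0.97). That list holds 5 of the 6 reference genes, among them the receptor transporters Rtp1 (-0.91, SE 0.51, and -0.50 without sFlt1 replicate 3) and Rtp2 (-1.04, SE 0.68, and -0.55 without it) and the ciliary stomatin Stoml3 (-1.13, SE 0.40).

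**Figure D5:**
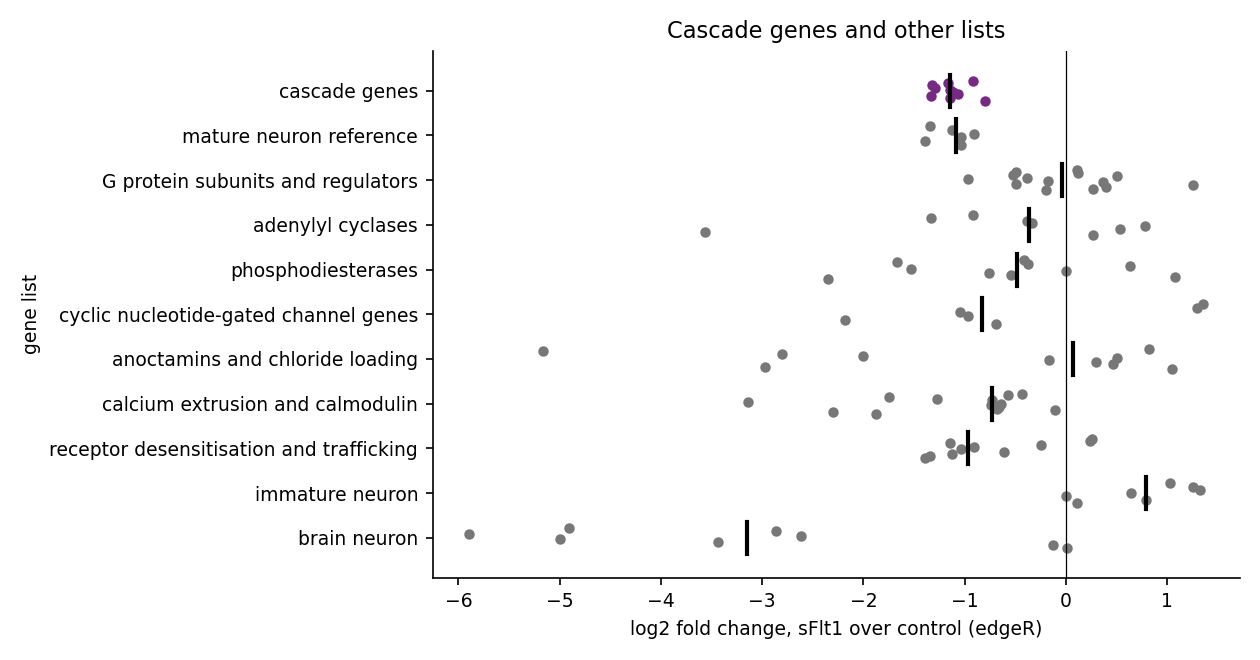
edgeR log2 fold changes of sFlt1 over control for the cascade genes and for other lists, with a point for each gene tested and a black bar at the median of each list. The cascade genes lie between -0.80 and -1.33 and the reference genes between -0.91 and -1.39, while the other pathway lists spread to both sides of 0 except for calcium extrusion and calmodulin.

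Among markers of other cells, the sum for immature neurons was higher in sFlt1 mice and the sum for sustentacular cells overlapped. Immature neuron markers summed to 825 to 1302 CPM of the library total in controls and 1409 to 1755 in sFlt1 mice. Of the 7 genes 6 had higher estimates, where 48.7% of all genes had an estimate below 0. At an unadjusted edgeR p under 0.05, 5 were higher, against 4.84% of all genes, and 0 passed in the main edgeR or DESeq2 fit. Gnas, the most abundant, had 0.10 (SE 0.32) and Tubb3 -0.002 (SE 0.20), both with overlapping groups. Dpysl3, of growing axons, averaged 176 ± 90.4 CPM in the control mice, against 441 ± 32.0 CPM in the sFlt1 mice (SD, n = 3). Its log2 fold change was 1.33 (edgeR SE 0.37, adjusted p = 0.432, DESeq2 adjusted p = 0.067). It passed only by DESeq2 with the replicate block, without control replicate 1 or without both libraries with Xist reads. Markers of sustentacular cells summed to 8721 to 14961 in controls and 8253 to 14879 in sFlt1 mice, and of 5 such genes 3 had lower and 2 higher estimates. The 2 most abundant, Cyp2g1 and Sec14l3, had -0.24 (SE 0.46) and -0.15 (SE 0.36), but 0.20 and 0.035 without control replicate 2, while Cbr2 had 0.49 (SE 0.30). Motile ciliated cell markers summed to 271 to 769 in controls and 759 to 1087 in sFlt1 mice, and of 5 such genes 4 had higher and 1 a lower estimate. Foxj1, their master regulator, had 0.64 (SE 0.34), with 0.36 and 1.01 when control replicate 3 or 1 was left out, and Dnah5 had 1.34 (SE 0.48). Tmem212 had 1.98 (edgeR SE 0.42, DESeq2 adjusted p = 0.0059) and passed in all 9 DESeq2 settings, while Ccdc39 had -0.24 (SE 0.38) and Rsph1 0.015 (SE 0.33). Markers of tuft-type microvillar cells summed to 19.4 to 26.0 in controls and 19.97 to 32.5 in sFlt1 mice, and Trpm5 was at 11.5 CPM or less in every library. Markers of guanylate cyclase D neurons, which use Cnga3, summed to 70.6 to 111 and 42.9 to 176, almost all of it Car2, with Gucy2d at 4.28 CPM or less. No tested marker of these cells was at 0 in any library. The part of these cells in the cascade differences was not tested.

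The genes outside the set whose profile over the 6 libraries lay closest to its mean were Ptchd1, Chga, Jakmip1, Fam131c, Rp2 and Umodl1, in that order. Likeness was the root mean square distance on centred log2 CPM, among 10964 genes that were no receptors and had a mean of 10 CPM or more, and it ran from 0.0832 for Ptchd1 to 0.129 for Umodl1. Chga encodes chromogranin A of secretory granules, and Umodl1 is one of the reference genes. Among the members, Gnal was nearest to the mean of the set at 0.0407, followed by Ano2 at 0.0833 and Adcy3 at 0.0947, and Gnb1 was farthest at 0.438. The members are part of the mean they were compared with.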

How the data were processed

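RNA was measured in 6 mice, 3 per group, grouped by their titles. Per the submitters' processing notes, reads were processed with tools that include DESeq2 1.26.0, HTSeq 2.0.1, TopHat2 2.2.1 and cutadapt 3.5, on the build GRCm39. No source used here gives the strand or counting settings, so reads of overlapping or antisense genes cannot be told apart. The gene table the authors deposited holds raw read counts per gene, in 55414 entries, of which 6250 carried no values. It also holds the authors' log2 fold changes and adjusted p-values. Another 48 columns of per-sample values were not used.

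The main test was the quasi-likelihood test of edgeR 4.0.16 in R 4.3.3 (TMM, filterByExpr, no covariate), with Benjamini-Hochberg adjustment over 19899 genes and a threshold of 0.05. Alternatives were DESeq2 1.42.0, limma 3.58.1 (voom), other scaling and filters, a replicate block, and leaving out mice. DESeq2 with a block or with mice left out was added after seeing the data. Ratios within a library used log2 CPM with a prior count of 2 and exact permutation over the 20 assignments, two-sided (smallest p 0.1). Gene coordinates are GRCm39, and exon lengths and promoters are GRCm38. The code was tested on simulated counts with changes larger than the main estimates of the cascade genes. How well differences of their size are detected was not tested. The cascade genes, lists and tests were chosen with earlier results of these data known. Named were all cascade genes, and of each other pathway list the genes passing in any fit, the smallest p and the highest CPM. Of each marker list the 2 highest were named, and the 6 genes nearest in profile. A few of the genes picked in this way were left out of the text.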

Additional observations from a re-analysis of the deposited data

How the results depend on the processing

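All 240 log2 fold changes of the cascade genes over 24 settings were below 0, from -2.03 to -0.48. The settings refit the same 6 mice, so these values are not independent of each other. By edgeR and voom, the lowest adjusted p over 15 settings was 0.179, with the replicate block. The number of genes passing was 0 by edgeR and 431 by DESeq2. Leaving out each mouse gave 0 to 1 genes by edgeR and, by DESeq2, 806, 369 and 187 without control replicates 1, 2 and 3 and 240, 1072 and 723 without sFlt1 replicates 1, 2 and 3. Without both libraries with Xist reads, DESeq2 gave 1208. The number of cascade genes passing was 10 by DESeq2 without sFlt1 replicate 2, 10 by DESeq2 with the replicate block and 0 in the other settings, and the cause was not tested. The labels do not say whether replicate numbers pair the mice. Deviations from the group means correlated at 0.026, 0.25 and 0.36 for same-numbered mice and from -0.42 to 0.29 for the other pairs. With 3 mice per group these values cannot settle whether the mice were paired. With the replicate block, the median was -1.34 by edgeR, where 0 genes passed, and 1549 genes passed by DESeq2, 5.95% of those tested as lower.

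For ratios within a library, where no test could pass, a change of sign was counted only beyond the SD between replicates. Relative to the other members, Gng13 went from -0.05 to 0.35 without both libraries with Xist reads. With Omp alone as the reference, Cnga4 was at 0.12, Cngb1 at 0.0049, Ano2 at 0.17, Adcy3 at 0.28 and Gng13 at 0.27, each below 0 with all 6 reference genes. Another 6 values moved by more than that SD in the same direction: Ano2 to -0.40 and Pde1c to -0.27 against the median of the members, Gnal to 0.093 without Gnb1 and to 0.33 against Omp, and, without both Xist libraries, Ric8b to -0.39 against the reference and to -0.37 against Gnal. Causes were not tested. The lowest depth behind a cascade gene's value was 1538 counts, for Cnga4 in sFlt1 replicate 3.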
